A study of Homo sapiens with 3 samples.

Results

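PTHLH, which encodes parathyroid hormone-like hormone, was 1 of the 58037 genes in the count table of the 3 libraries. The gene was found by its Ensembl identifier, ENSG00000087494.15, and was chosen by its log2 fold changes, which were large between the OLFM4-wild library and both other libraries. Those differences, and all values from the same comparisons, are given here as a description with no test. The libraries held bulk RNA of RWPE1 cells, an immortalized line of normal human prostate epithelium that was grown in serum-free medium for prostate epithelial cells, and each condition had 1 library. The conditions were OLFM4-wild, OLFM4-knockout and a condition labelled OLFM4-active. OLFM4 encodes olfactomedin 4, a secreted glycoprotein. As the study's methods state, its GFP reporter cells were made by transfecting CRISPR/Cas9 plasmids for OLFM4, an activation pair for OLFM4-wild reporter cells and a double-nickase pair for OLFM4-knockout cells, with a repair plasmid, and RNA was taken from cells sorted by GFP. The methods also name puromycin selection of stable lines. The column of the OLFM4-wild library is named Control, and which plasmids, if any, the cells of each library received was not given. Any difference between the libraries in transfection, selection or sorting cannot be told apart from the labelled condition. Whether the cells behind each library came from 1 clone was not given in the sources used here. With 1 library per condition there was no replicate check, no test between conditions could be made, and all intervals below are exact Clopper-Pearson intervals at 95% that cover counting error only.

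Parathyroid hormone-like hormone, also called PTHrP, is a secreted peptide whose first part resembles parathyroid hormone and acts on the same receptor, PTH1R, a G protein-coupled receptor that signals mainly through cAMP and protein kinase A. Most tissues use it as a local factor, for example in cartilage growth, in mammary and tooth development and in keratinocytes. Released by tumours into the blood it causes hypercalcaemia, and it is known in prostate cancer as a factor that acts on bone. The hormone is made as a precursor, cut by furin-like convertases, and can also enter the nucleus.

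The targeted gene was checked first. OLFM4 had 214 counts in OLFM4-wild, 131 in OLFM4-knockout and 16 in the library labelled OLFM4-active. As CPM, a gene's counts over all counts of the library on a common scale, these were 11.8, 2.55 and 0.670. CPM here are scaled with the TMM factors of edgeR. The log2 fold change of OLFM4 against OLFM4-wild was -2.20 in OLFM4-knockout and -4.10 in the library labelled OLFM4-active, so OLFM4 was lowest in the library whose label names its activation. That label is therefore used only as a name, and no direction of OLFM4 is read from it. The libraries held between 16309906 and 58837147 counts. A floor of 3 counts was set. It came to 0.165 CPM in OLFM4-wild, 0.0584 CPM in OLFM4-knockout and 0.126 CPM in the library labelled OLFM4-active. The 10 basal epithelial markers were all above that floor in every library, with KRT5 the most abundant by CPM. Of 10 luminal markers, 4 were above the floor in OLFM4-wild, 4 in OLFM4-knockout and 5 in the library labelled OLFM4-active. KRT8, 1 of these, was at 282.2 CPM in OLFM4-wild, whereas KLK2 and KLK4, secreted proteases of luminal prostate cells, were at 0 in all 3 libraries.

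On GRCh38, PTHLH lies on the minus strand of chromosome 12 from 27958084 to 27972733, over 14650 bases, and GENCODE lists 9 transcripts for it, whose exons merge into 7 blocks with 3405 bases in all. Its transcripts start at several places. The third block from the 5′ end begins 4 of them. The 250 bases just before that block are shown because they lie upstream of these 4 starts and because of their base composition. The counts that differ between the libraries are summed over all 9 transcripts. Capitals mark letters of the motifs searched, on either strand.
PTHLH upstream window of the third block, chr12:27970350-27970599, minus strand: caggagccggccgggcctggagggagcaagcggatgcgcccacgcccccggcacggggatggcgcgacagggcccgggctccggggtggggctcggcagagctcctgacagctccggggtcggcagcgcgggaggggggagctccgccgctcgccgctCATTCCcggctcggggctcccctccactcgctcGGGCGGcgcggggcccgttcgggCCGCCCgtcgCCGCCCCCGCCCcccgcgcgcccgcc

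The window before the third block was 82.4% G or C with 38 CpG pairs, a higher content than in 98.6% of the 27305 promoters of equal length in RefSeq (GRCh38.p14). Of 8 motifs searched on both strands, the window before the third block held the GC box GGGCGG 4 times, with no overlap between matches of different motifs, and the TEAD site GGAATG once. The GC box stood in 42.3% of RefSeq promoters and the TEAD site in 11.9%, so neither is rare. No match was found in this window for the TATA box TATAAA (11.1% of promoters), the E-box CACGTG (6.49%), the AP-1 site TGANTCA (6.6%), the cAMP response element TGACGTCA (1.77%), the ETS core CCGGAA (14.8%) or the GLI site GACCACCCA (0.216%), which says only that these letters are not in this window.

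A further window, before the start that RefSeq gives for PTHLH, held the ETS core, and it is shown because ETS factors are known to act on the PTHLH promoter. The site lies inside the third block, so it is exonic in some transcripts and upstream of others. The capitals mark 2 overlapping matches, 1 on each strand.
PTHLH ETS site, chr12:27970035-27970064, minus strand: tggaatcaactTTCCGGAAgcaaccagccc
The table gives 1 count per gene, so which of these starts was used in which library was not measured.

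PTHLH was read at 198 counts in OLFM4-wild, 6168 in OLFM4-knockout and 2426 in the library labelled OLFM4-active. On the CPM scale its level was 10.9 (9.43 to 12.5) in OLFM4-wild, 120.2 (117.2 to 123.2) in OLFM4-knockout and 101.5 (97.5 to 105.7) in the library labelled OLFM4-active. The OLFM4-wild library was thus low and both others were high, which is how the gene was chosen. The log2 fold change was 3.46 (3.26 to 3.67) in OLFM4-knockout against OLFM4-wild, which is 11.0-fold. It was 3.22 (3.01 to 3.44), or 9.30-fold, in the library labelled OLFM4-active. Both comparisons use the same OLFM4-wild library, so they are not independent of each other. In bulk RNA, fewer cells that express a gene and less of its RNA per cell cannot be told apart.

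**Figure D1:**
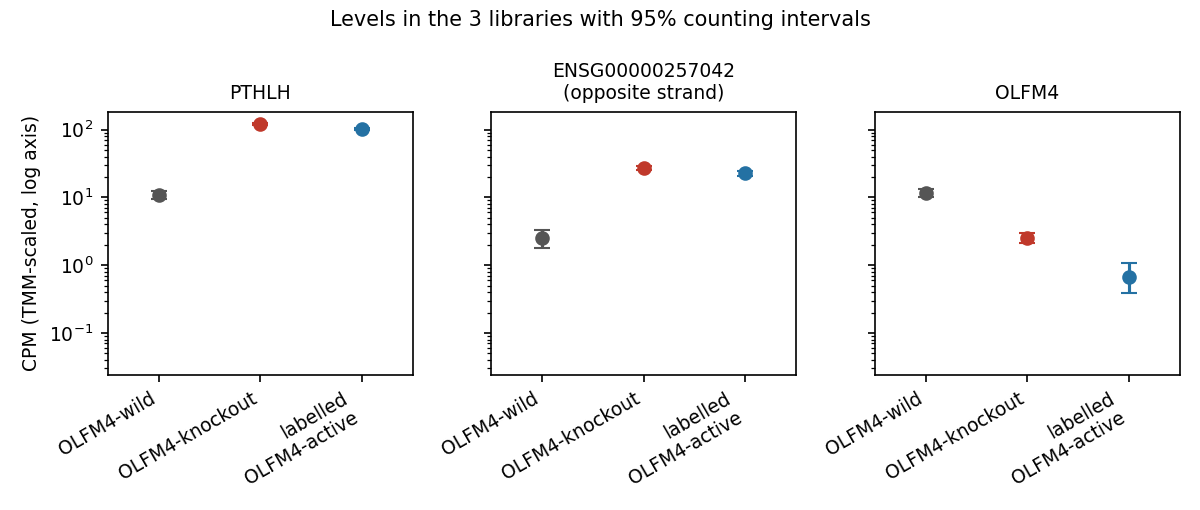
Levels in CPM (TMM-scaled, log axis) of PTHLH, of ENSG00000257042 on its opposite strand and of OLFM4 in the OLFM4-wild, OLFM4-knockout and labelled OLFM4-active libraries. Points are single libraries and bars are 95% counting intervals; PTHLH stands at 10.9 CPM in OLFM4-wild and above 100 CPM in both others, whereas OLFM4 falls from 11.8 CPM to 2.55 and 0.670 CPM.

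The order of OLFM4-knockout and the library labelled OLFM4-active was not settled. Their log2 fold change for PTHLH was 0.24 (0.17 to 0.31) with TMM factors but 0.0049 with library totals and 0.06 with a scale set by housekeeping genes, so these neighbours differed by no more than the choice of scale. The 28 housekeeping genes, used 1 at a time as the reference, gave a PTHLH ratio of OLFM4-knockout to OLFM4-wild between 4.09 with TFRC, the transferrin receptor, and 16.7 with POLR2A, a subunit of RNA polymerase II, with a median of 8.34. The ratio of the library labelled OLFM4-active to OLFM4-wild ran from 4.21 with HPRT1, a purine salvage enzyme, to 15.9 with B2M, the light chain of MHC class I, with a median of 8.43. All 28 references put PTHLH higher in both libraries than in OLFM4-wild, which a gene chosen for its large rise was likely to give. For OLFM4-knockout over the library labelled OLFM4-active the ratio lay between 0.718 and 2.17, and it was above 1 with 14 of the 28. In that comparison 36.3% of genes had a log2 fold change at least as high as PTHLH, with 2.95% of genes above 1 and 3.39% below -1, or 1.28% and 6.84% with library totals.

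The 16600 genes that averaged 1 CPM or more over the 3 libraries are called measured below. Of these, 0.139% had a log2 fold change at least as high as that of PTHLH in OLFM4-knockout against OLFM4-wild, and 0.0964% had one in the library labelled OLFM4-active. PTHLH ranked 23rd and 16th in these comparisons. Within the 10597 genes that averaged 10 CPM or more it ranked 1st in OLFM4-knockout and 2nd in the library labelled OLFM4-active. These ranks are of the values that chose the gene and nothing is read from them. A log2 fold change above 1 was seen in 5.77% of the 16600 genes and one below -1 in 7.56% in OLFM4-knockout against OLFM4-wild, which became 2.22% and 13.9% with library totals. The shares in the library labelled OLFM4-active were 3.78% above 1 and 6.73% below -1, or 2.89% and 8.36% with library totals. The TMM factors moved every log2 fold change up by 0.35 in the first comparison and by 0.11 in the second relative to totals. Against OLFM4-wild, 2.13% of genes were above 1 in both libraries, a share that rests on the shared OLFM4-wild library.

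The gene on the opposite strand of PTHLH is the lncRNA ENSG00000257042, which spans 27958517 to 27969813 of chromosome 12 on the plus strand, with 2 exons and 792 exon bases. Of these, 353 bases lie over exons of PTHLH, in stretches of 52, 168 and 133 bases. The study's methods state that read pairs were counted by strand, from a stranded kit. The borders of its single intron of 10505 bases are shown because they lie outside the exons of PTHLH and read as GT and AG, the usual ends of an intron, on the plus strand. Capitals mark those 2 bases.
ENSG00000257042 splice donor, chr12:27958577-27958636, plus strand: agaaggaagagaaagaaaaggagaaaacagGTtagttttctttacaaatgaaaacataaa
ENSG00000257042 splice acceptor, chr12:27969082-27969141, plus strand: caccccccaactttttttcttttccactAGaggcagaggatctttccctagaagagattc

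ENSG00000257042 had 45 counts in OLFM4-wild, 1395 in OLFM4-knockout and 546 in the library labelled OLFM4-active. In CPM these were 2.48 (1.81 to 3.31), 27.2 (25.8 to 28.6) and 22.9 (21.0 to 24.9), so this gene too was low in OLFM4-wild and high in both others. Its log2 fold change against OLFM4-wild was 3.44 (3.03 to 3.92) in OLFM4-knockout and 3.19 (2.77 to 3.68) in the library labelled OLFM4-active. For every 100 counts of PTHLH it held 22.7 (16.1 to 31.5) counts in OLFM4-wild, 22.6 (21.3 to 24.0) in OLFM4-knockout and 22.5 (20.5 to 24.7) in the library labelled OLFM4-active. The ratio of the pair thus differed between the libraries by less than the counting error. Used for comparison were 991 other pairs of opposite-strand genes that overlap by at least 200 exon bases. Their more abundant gene had at least 1000 counts in every library, which PTHLH, at 198 in OLFM4-wild, did not. The less abundant gene of these pairs had a median of 11.97 counts per 100 in OLFM4-wild, 11.98 in OLFM4-knockout and 11.51 in the library labelled OLFM4-active. The PTHLH pair lay above 67.6%, 67.0% and 68.5% of them. Its highest ratio over its lowest was 1.01, beside a median of 1.30 over the 770 pairs whose less abundant gene had at least 45 counts in every library, and 3 of these pairs had a smaller value. The counting interval in OLFM4-wild, 16.1 to 31.5, is wider than a spread of 1.01, so nothing is read from this place among the pairs. Whether any of the counts of ENSG00000257042 came from RNA of PTHLH was not tested.

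The other measured genes near PTHLH all had smaller log2 fold changes. PTHLH was chosen for its large values, so that order was largely set by the choice and nothing is read from it. Of 42 annotated genes within 1 Mb, 15 besides ENSG00000257042 were measured, and 9 of these encode proteins. In OLFM4-knockout against OLFM4-wild their median log2 fold change was 0.13, with 1 gene above 1, beside the 5.77% of all genes, and 0 below -1. In the library labelled OLFM4-active the median was 0.35, with 2 above 1, beside the 3.78% of all genes, and 0 below -1. The highest neighbour in both was the lncRNA ENSG00000256747, at 1.49, 5.94 and 3.18 CPM in OLFM4-wild, OLFM4-knockout and the library labelled OLFM4-active. Its log2 fold changes were 1.98 and 1.08, and BMAL2-AS1, an antisense RNA of the clock gene BMAL2, was also at 1.08 in the second comparison.

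The nearest measured protein-coding genes on either side were KLHL42, an adaptor of a ubiquitin ligase, and CCDC91, which acts in transport from the Golgi. KLHL42 stood at 27.0, 45.6 and 45.5 CPM in OLFM4-wild, OLFM4-knockout and the library labelled OLFM4-active, with log2 fold changes of 0.76 in both comparisons, the highest of the 9 coding neighbours. CCDC91 stood at 17.8, 17.4 and 24.7 CPM, with log2 fold changes of -0.04 and 0.47. The lowest coding neighbour was STK38L, a kinase of the Hippo pathway family, at -0.34 and -0.36.

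**Figure D2:**
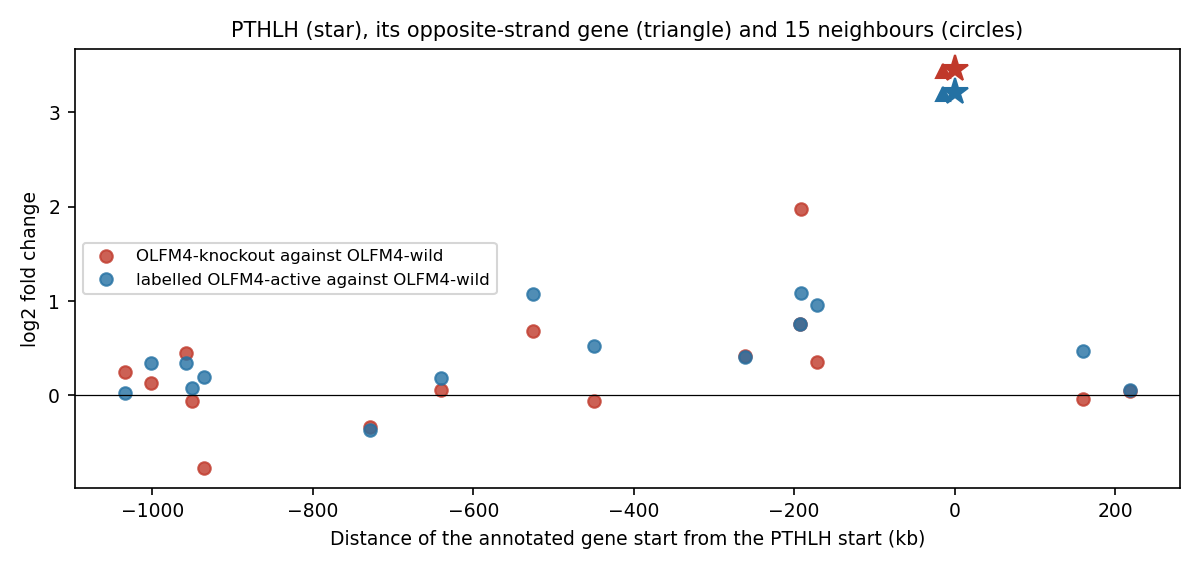
Log2 fold change (vertical axis) of PTHLH, its opposite-strand gene and its 15 measured neighbours against the distance of each annotated start from the PTHLH start in kb (horizontal axis). Red marks OLFM4-knockout and blue the library labelled OLFM4-active, each against OLFM4-wild. PTHLH, which was chosen for its large values, and ENSG00000257042 stand above 3 and all 15 neighbours below 2.

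The receptor of the hormone was at or under the floor in the same libraries. PTH1R, the shared receptor of parathyroid hormone and PTHrP, had 0 counts in OLFM4-wild, 2 in OLFM4-knockout and 0 in the library labelled OLFM4-active. PTH2R, the related receptor, had 3, 1 and 0 counts. RAMP2, a membrane protein known to modify receptor signalling, had 3, 5 and 0 counts, 0.0974 CPM in OLFM4-knockout. PTH, parathyroid hormone itself, and PTH2, which encodes the ligand of PTH2R, had 0 counts in all 3 libraries. PTHLH was therefore the only one of the 6 genes in the list of PTH family ligands and receptors that was measured at 1 CPM or more, and a difference in its receptor was not detectable at this depth.

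The genes that act after PTH1R were mostly present, and their median lay near that of all genes. Of 37 genes of PTH1R signal transduction, 30 were measured. In OLFM4-knockout against OLFM4-wild 1 was above 1 (3.33%, beside 5.77% of all genes) and 6 were below -1 (20%, beside 7.56%), with a median of -0.04 beside 0.10 over all genes. In the library labelled OLFM4-active 0 were above 1 (beside 3.78%) and 2 below -1 (6.67%, beside 6.73%), with a median of -0.03 beside 0.05 over all genes. With library totals the medians were -0.39 and -0.14, beside -0.26 and -0.07 over all genes, with 0 above 1 in either comparison and 7 and 2 below -1. GNAS, the stimulatory G protein subunit that couples PTH1R to adenylyl cyclase, stood at 829.5, 850.8 and 977.2 CPM in OLFM4-wild, OLFM4-knockout and the library labelled OLFM4-active. ADCY6, an adenylyl cyclase, stood at 38.8, 17.5 and 15.03 CPM, lower in both libraries than in OLFM4-wild. PLCB4, a phospholipase C of the Gq branch, was the lowest of the list in OLFM4-knockout at a log2 fold change of -1.68. PRKAR1B, a regulatory subunit of protein kinase A, was the highest there at 1.03. NHERF1, a scaffold that binds the tail of PTH1R, was the most abundant of the list per length, at 78.4, 83.2 and 75.5 TPM, a scale of counts over exon length set within each library.

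Genes that cut, import or degrade the PTHLH protein included both directions. Of the 12 genes, 10 were measured, and their median log2 fold change was -0.09 in OLFM4-knockout and 0.08 in the library labelled OLFM4-active, or -0.45 and -0.04 with library totals. FURIN, a convertase that cuts the precursor, stood at 41.7, 41.2 and 41.9 CPM in OLFM4-wild, OLFM4-knockout and the library labelled OLFM4-active. PCSK5, another convertase, was the only member above 1 in OLFM4-knockout (10%, beside 5.77% of all genes), at 1.75 (1.54 to 1.97). It was at 0.97 in the library labelled OLFM4-active, where 0 were above 1, beside 3.78%. MME, neprilysin, a peptidase of the cell surface, was the only member below -1 in either comparison (10%, beside 7.56% and 6.73% of all genes). With library totals 2 members were below -1 in OLFM4-knockout and 1 in the library labelled OLFM4-active. MME had 159, 187 and 21 counts, or 8.75, 3.64 and 0.879 CPM, with log2 fold changes of -1.26 and -3.29. KPNB1, the importin that carries PTHrP into the nucleus, was at 0.04 and 0.15. RAN, the GTPase that drives nuclear transport, was the most abundant of the list per length, at 86.7, 102.1 and 115.4 TPM.

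Factors known to act on PTHLH transcription, and growth factors and receptors upstream of them, were measured for 26 of 29 genes. In OLFM4-knockout against OLFM4-wild 1 was above 1 (3.85%, beside 5.77% of all genes) and 4 were below -1 (15.4%, beside 7.56%), with a median of -0.22. The library labelled OLFM4-active had 2 above 1 (7.69%, beside 3.78%) and 2 below -1 (7.69%, beside 6.73%), with a median of 0.16. With library totals the medians were -0.58 and 0.05, and 0 and 2 were above 1 and 6 and 3 below -1. EGFR, the epidermal growth factor receptor, was the most abundant of the list per length, at 260.8, 136.9 and 280.6 TPM in OLFM4-wild, OLFM4-knockout and the library labelled OLFM4-active. TGFA, a ligand of EGFR, stood at 43.6, 87.8 and 81.7 CPM, with log2 fold changes of 1.01 and 0.90. AREG, another EGFR ligand, stood at 93.8, 154.4 and 239.7 CPM, with 0.72 and 1.35.

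Among the transcription factors, GLI2, an effector of Hedgehog signalling, was the lowest of the list in both comparisons at -1.53 and -1.35, from 47, 46 and 24 counts. ETS2 stood at 283.9, 104.1 and 121.1 CPM in OLFM4-wild, OLFM4-knockout and the library labelled OLFM4-active, lower in both libraries than in OLFM4-wild. ETS1 had log2 fold changes of -0.11 and 0.76. SOX9, a factor of chondrocytes and of prostate development, was at 20.5, 20.4 and 61.4 CPM, so it was high only in the library labelled OLFM4-active, where its log2 fold change of 1.58 was the highest of the list. Of the genes of TGF-beta signalling, SMAD2, SMAD3 and SMAD4 lay between -0.68 and 0.14 in the comparisons with OLFM4-wild. The receptors TGFBR1 and TGFBR2 lay between -0.32 and 0.30. The ligand TGFB1 was at -0.59 in OLFM4-knockout and 0.23 in the library labelled OLFM4-active, and TGFB2 at -1.38 and -0.91.

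**Figure D3:**
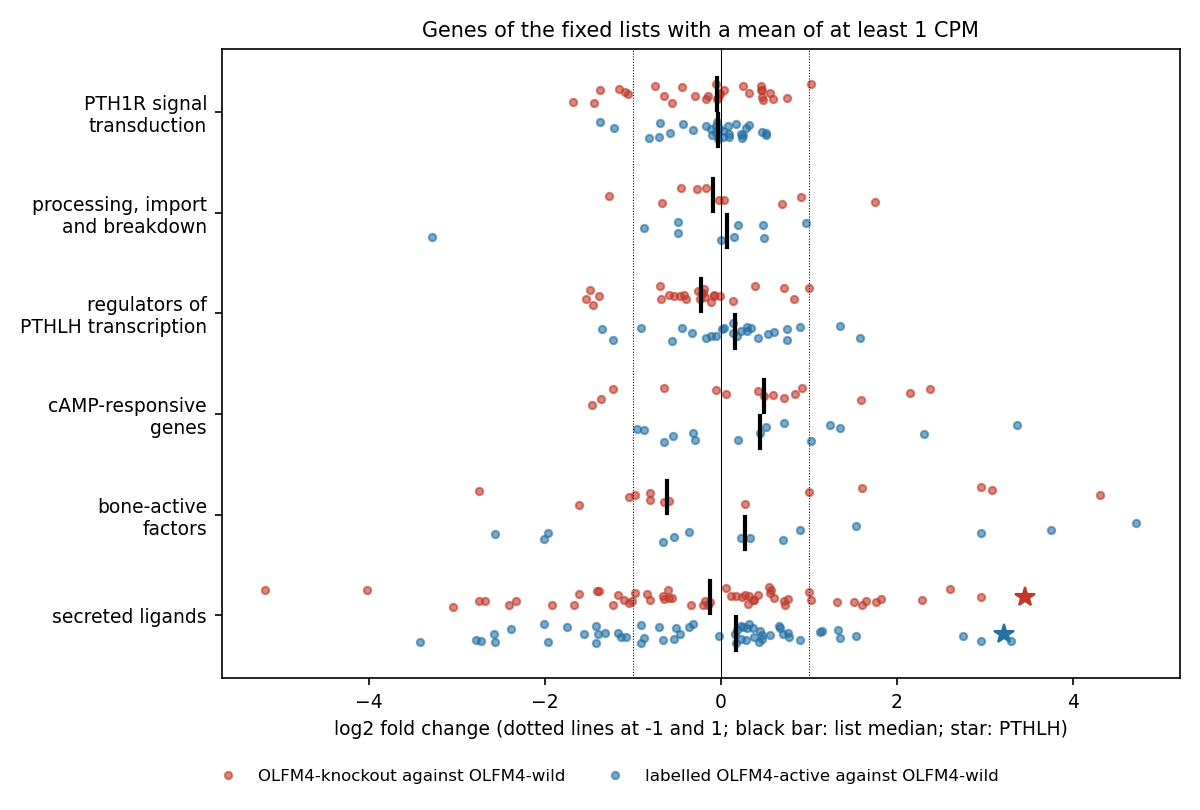
Log2 fold change of each measured gene in the 6 lists other than the PTH family, for OLFM4-knockout (red) and the library labelled OLFM4-active (blue) against OLFM4-wild. Black bars are list medians, dotted lines mark -1 and 1, and stars mark PTHLH, which stands at 3.46 and 3.22 among the secreted ligands, second to FST in the library labelled OLFM4-active, while the medians lie between -0.61 and 0.50.

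Genes that respond to cAMP, the second messenger of PTH1R, were measured for 15 of 23. In OLFM4-knockout 3 were above 1 (FOS, NR4A3 and SIK1) and 3 below -1 (FOSL2, NR4A2 and PER1), 20% each beside 5.77% and 7.56% of all genes, with a median of 0.50, or 0.14 with library totals. In the library labelled OLFM4-active 5 were above 1 (AREG, FOS, FOSB, NR4A3 and SIK1), 33.3% beside 3.78% of all genes, and 0 below -1, beside 6.73%, or 4 and 1 with library totals. The median there was 0.45, or 0.33 with library totals and 0.20 over members at 10 CPM or more. SIK1, a kinase that restrains CREB co-activators, had 81, 1193 and 530 counts, or 4.46, 23.2 and 22.2 CPM, and was the highest in OLFM4-knockout at 2.37 (2.06 to 2.73). NR4A3, a nuclear receptor of the immediate early class, had 6, 81 and 88 counts and was the highest in the library labelled OLFM4-active at 3.37 (2.30 to 4.96). At 0.330 CPM in OLFM4-wild, NR4A3 was measured only through the libraries where it was high. PER1, a clock gene, stood at 117.9, 42.8 and 96.6 CPM and was the lowest in OLFM4-knockout at -1.46. CITED2, a transcriptional co-regulator, was the lowest in the library labelled OLFM4-active at -0.95. JUNB, an AP-1 subunit, was the most abundant of the list per length, at 361.1, 319.6 and 235.1 TPM.

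Other factors that tumours release and that act on bone were not alike. Of 22 genes, 14 were measured, and their median log2 fold change was -0.61 in OLFM4-knockout and 0.28 in the library labelled OLFM4-active, or -0.97 and 0.16 with library totals. ADAMTS1, DKK1, IL11 and MMP1 were above 1 in both comparisons, and CSF1, CXCL8 and IL6 were below -1 in both. Besides these, TGFA was above 1 in OLFM4-knockout, though not with library totals. The 5 of 14 above 1 (35.7%) and 3 below -1 (21.4%) in OLFM4-knockout stand beside 5.77% and 7.56% of all genes, and became 4 and 6 with library totals. The 4 above 1 (28.6%) and 3 below -1 (21.4%) in the library labelled OLFM4-active stand beside 3.78% and 6.73%. MMP1, ADAMTS1 and IL11 were at 0.165, 0.660 and 0.991 CPM in OLFM4-wild, so they were measured only through the libraries where they were high. IL6, at 0.526 and 0.586 CPM in OLFM4-knockout and the library labelled OLFM4-active, was measured only through OLFM4-wild. The shares above include these genes. DKK1, a secreted WNT antagonist that lowers bone formation, stood at 48.0, 373.7 and 374.4 CPM in OLFM4-wild, OLFM4-knockout and the library labelled OLFM4-active, and was the most abundant of the list per length. ADAMTS1, a metalloprotease, had 12, 300 and 222 counts, with log2 fold changes of 3.09 (2.32 to 4.11) and 3.76 (2.98 to 4.79). MMP1, a collagenase, had 3, 195 and 121 counts. Its log2 fold changes were the highest of the list, at 4.31 (2.96 to 6.81) and 4.72 (3.36 to 7.24), and the wide intervals follow from the 3 counts in OLFM4-wild. IL11, a cytokine that acts on osteoclasts, had 18, 159 and 70 counts, with 1.61 and 1.54. IL6, a related cytokine, had 65, 27 and 14 counts and was the lowest of the list, at -2.75 and -2.57.

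Among secreted ligands PTHLH stood in the middle of the list in OLFM4-wild and near its top in both other libraries. Per length, its level was 6.38 TPM in OLFM4-wild, 44.1 TPM in OLFM4-knockout and 56.4 TPM in the library labelled OLFM4-active, which ranked 34th, 7th and 6th among the 82 genes of the list for hormones, growth factors and cytokines. TPM are set within a library and are not scaled by TMM, and on this scale the library labelled OLFM4-active was above OLFM4-knockout, the reverse of the order in CPM. With the length of the longest annotated transcript in place of the merged exons, the ranks were 27th, 6th and 6th. The change of rank between the libraries follows from the values that chose the gene, and nothing is read from it. Just above PTHLH on the TPM scale stood WNT7B, a WNT ligand, at 6.63 in OLFM4-wild, ADM, the peptide adrenomedullin, at 45.1 in OLFM4-knockout, and IL18, a cytokine, at 87.3 in the library labelled OLFM4-active. The gaps to WNT7B and ADM were smaller than the counting error of PTHLH, whereas the gap to IL18 was not. Over all measured genes, the TPM of PTHLH lay above 40.4%, 91.8% and 91.1% in the same order of libraries. FGFBP1, a carrier of fibroblast growth factors, led the list per length in OLFM4-wild with 235.2 TPM and in OLFM4-knockout with 370.3 TPM, and DKK1 led it in the library labelled OLFM4-active with 318.8 TPM.

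Of the 82 ligand genes, 59 were measured. In OLFM4-knockout 12 of them, PTHLH included, were above 1 (20.3%, beside 5.77% of all genes) and 17 below -1 (28.8%, beside 7.56%), with a median of -0.12 that was -0.47 with library totals and 0.33 over members at 10 CPM or more. The library labelled OLFM4-active had 9 above 1 (15.3%, beside 3.78%) and 17 below -1 (28.8%, beside 6.73%), with a median of 0.17 that was 0.05 with library totals and -0.03 with housekeeping genes. The sign of both medians thus depended on these choices. With library totals the counts were 9 above and 21 below in the first and 9 above and 19 below in the second. PTHLH had the highest log2 fold change of the list in OLFM4-knockout, a value that was used to choose it. In the library labelled OLFM4-active FST, follistatin, which binds and blocks activins, was the highest, at 3.30 (3.20 to 3.41), and stood at 42.5, 258.3 and 420.0 CPM over the 3 libraries. INHBA, which encodes the subunit of activin A, was the lowest there, at -3.41, from 198, 34 and 24 counts. INHBA had the same 198 counts as PTHLH in OLFM4-wild. IGF2, insulin-like growth factor 2, was the lowest in OLFM4-knockout, at -5.18 (-6.97 to -4.01), from 70, 5 and 15 counts. At 0.0974 CPM in OLFM4-knockout and 0.628 CPM in the library labelled OLFM4-active, IGF2 was measured only through OLFM4-wild.

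**Figure D4:**
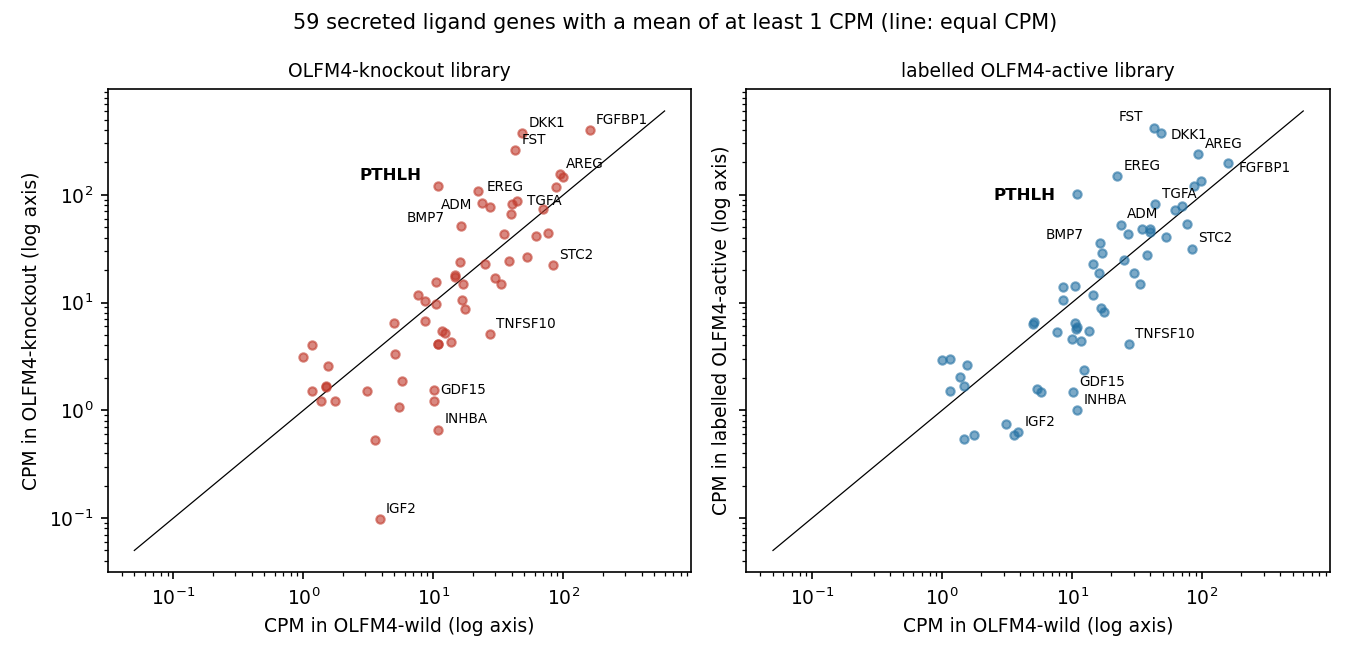
Level in CPM (log axes) of 59 secreted ligand genes in OLFM4-knockout (left) and the library labelled OLFM4-active (right) against OLFM4-wild; each point is 1 gene and the line marks equal CPM. PTHLH, at 10.9 CPM in OLFM4-wild, stands at 120.2 and 101.5 CPM, far above the line in both, and INHBA and IGF2 stand far below it.

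The genes whose pair of log2 fold changes lay nearest to that of PTHLH were found by Euclidean distance among the 10597 genes that averaged 10 CPM or more. A pattern over 3 libraries has only 2 free differences, both taken from the same OLFM4-wild library, so likeness here is a description. ENSG00000257042 was nearest, at a distance of 0.03 on the log2 scale. Then came MT1E, a metallothionein that binds zinc and copper, at 0.35, with 523, 12979 and 5807 counts in OLFM4-wild, OLFM4-knockout and the library labelled OLFM4-active. MT1E has close copies in its gene family, so its counts of uniquely mapped reads are uncertain. ODC1, the rate-limiting enzyme of polyamine synthesis, followed at 0.54. It stood at 144.0, 1425.2 and 937.6 CPM, with log2 fold changes of 3.31 and 2.70.

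DKK1 was next at 0.56, with log2 fold changes of 2.96 in both comparisons. AJAP1, a membrane protein of adherens junctions, lay at 0.67, with 128, 2543 and 1397 counts. FST lay at 0.86, and F3, tissue factor, which starts blood coagulation, at 1.17. F3 stood at 85.9, 450.4 and 577.7 CPM in OLFM4-wild, OLFM4-knockout and the library labelled OLFM4-active. EREG, epiregulin, a ligand of EGFR, lay at 1.27, THBS2, a matrix protein of the thrombospondin family, at 1.32, and SIK1 at 1.42. All 10 were low in OLFM4-wild and high in both other libraries, which the measure itself requires.

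**Figure D5:**
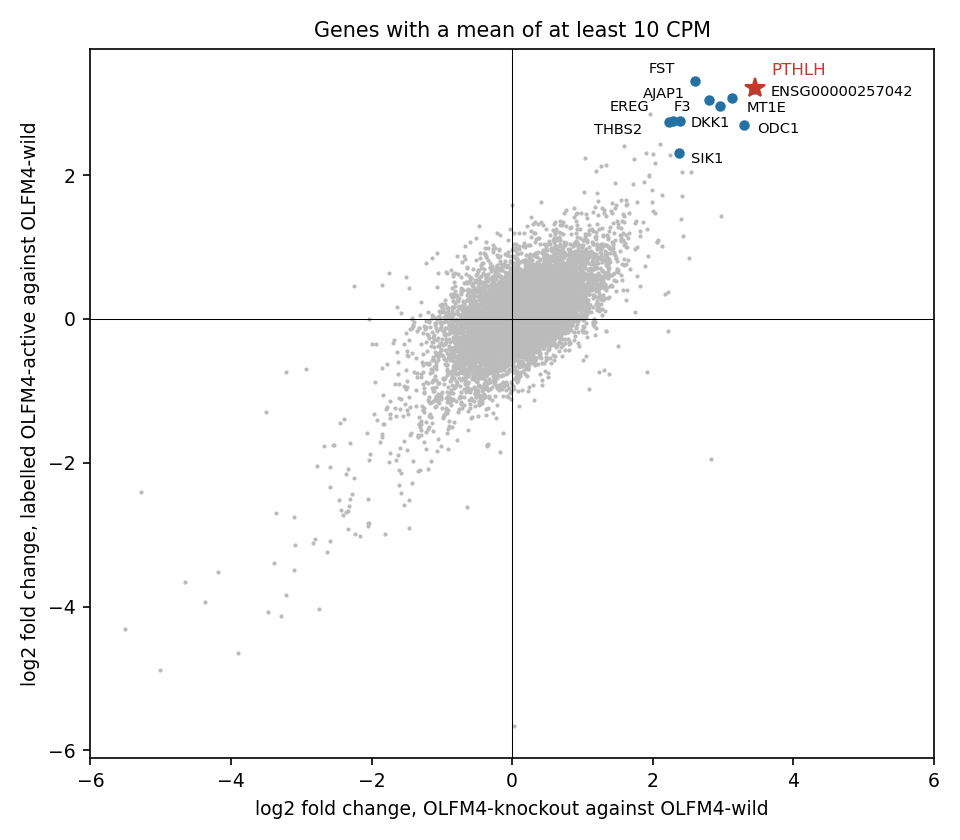
Log2 fold changes over OLFM4-wild of the library labelled OLFM4-active (vertical) and of OLFM4-knockout (horizontal) for the 10597 genes that averaged 10 CPM or more (grey points). The star marks PTHLH at 3.46 and 3.22, and blue points are the 10 nearest genes, from ENSG00000257042 at a distance of 0.03 to SIK1 at 1.42; both axes share the OLFM4-wild library.

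Of these 10 genes, 8 had a RefSeq promoter. The 250 bases before their start held the GC box in 6 (AJAP1, DKK1, F3, FST, ODC1 and SIK1), beside 42.3% of all promoters, the TATA box in 4 (DKK1, EREG, F3 and THBS2), beside 11.1%, and the TEAD site in 3 (DKK1, EREG and THBS2), beside 11.9%. The ETS core was in 2 (DKK1 and ODC1), beside 14.8%, and the AP-1 site in 2 (F3 and FST), beside 6.6%. The E-box, the cAMP response element and the GLI site were in 0 of the 8, beside 6.49%, 1.77% and 0.216% of all promoters, so nothing is read from their absence. The RefSeq window of PTHLH held the GC box and the ETS core and none of the other motifs. The 8 genes are few and were picked from these same data, so nothing is read from the motifs they hold either.

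Basal markers as a sum were highest in OLFM4-knockout, and the sums for markers of other cell types were far below the basal sum in every library. The summed level of the 10 basal markers was 27592 CPM in OLFM4-wild, 57141 CPM in OLFM4-knockout and 32590 CPM in the library labelled OLFM4-active, and 3 of them (KRT5, KRT14 and KRT15) were above 1 in OLFM4-knockout, beside 5.77% of all genes, and 0 in the library labelled OLFM4-active. With library totals 1 of the 10 was above 1 in OLFM4-knockout, beside 2.22% of all genes. Of 10 luminal markers, 4 or 5 were above the floor in a library, and their sum was 468.6, 429.3 and 308.6 CPM, mostly from KRT8 and KRT18. Of 6 neuroendocrine markers, 2 or 3 were above the floor, with a sum between 0.740 and 0.963 CPM and with INSM1 at 0 in every library. Of 12 markers of stroma, endothelium and blood, 3 or 5 were above the floor, with a sum of 65.9, 56.2 and 42.7 CPM, and CD3E, CDH5, COL3A1, DES and LUM were at 0 in every library. The part of the basal markers and of library depth in the level of PTHLH was not tested.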

How the data were processed

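Per the study's methods and the labels, total RNA of RWPE1 cells was depleted of ribosomal RNA, made into stranded libraries and sequenced as paired ends. The authors trimmed the reads with cutadapt, aligned them with HISAT2 to GRCh38 and counted uniquely mapped, reversely stranded pairs per GENCODE gene with featureCounts. The deposited values are these whole-number counts, not normalized, in 3 columns whose names give the library.

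In R 4.3.3, TMM factors from edgeR 4.0.16 set the library sizes, and an offset of 0.5 counts gave the same log2 CPM as the voom function (limma 3.58.1). Intervals, lists and plots were made in Python 3.11.15 (scipy 1.17.1, numpy 2.4.6, pandas 2.3.3, matplotlib 3.10.9). TPM were set from merged exon lengths. Positions and lengths came from GENCODE release 44, which matched 98.1% of the genes, and 45 rows of the Y copy of the pseudoautosomal region, with 0 counts, stayed unmatched. Scripts were tested on simulated data. No differential test was run because each condition had 1 library. Total counts were 16309906, 58837147 and 23224216, and the spread between libraries of 1 condition was not measured.

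PTHLH and all lists were chosen with earlier results of these data known. Named are PTHLH, its opposite-strand gene, list genes (in each list the most abundant per length and the highest and lowest in log2 fold change, and others for their role), neighbours, and the 10 genes most like PTHLH. Alternatives covered scaling (totals, DESeq2 1.42.0 size factors, upper quartile, housekeeping genes, without the 10 most abundant genes, thinning to the smallest total), the offset, the low-level filter, gene length, exon overlap and the measure of likeness. Sequences came from the GRCh38 genome and promoters from RefSeq. Some results on markers and on sequence upstream of PTHLH are not reported here.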

Additional observations from a re-analysis of the deposited data

How the results depend on the processing

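PTHLH stayed above OLFM4-wild in both comparisons under every scaling and offset tried. Its log2 fold changes ran from 3.08 to 3.47 in OLFM4-knockout and from 3.02 to 3.24 in the library labelled OLFM4-active. A gene chosen for its large rise was likely to stay above, so this shows only how far the value moved. In OLFM4-knockout the log2 fold change of PTHLH was 3.11 with library totals and 3.08 with housekeeping genes. Between OLFM4-knockout and the library labelled OLFM4-active it was 0.0049 with totals, 0.14 with upper quartile factors, 0.061 with housekeeping genes and 0.17 after thinning. For ENSG00000257042 that difference was 0.011 with totals and 0.067 with housekeeping genes.

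Counts of genes past a log2 fold change of 1 depended on scale and filter. In OLFM4-knockout against OLFM4-wild, 957 genes above 1 became 368 with totals, 337 with housekeeping genes, 3338 when 1 count in either library was enough and 499 at 10 CPM or more, and 1255 below -1 became 2308, 2466, 7970 and 311. In the library labelled OLFM4-active, 627 above 1 became 386 with housekeeping genes, 4707 with at least 1 count and 249 with at least 10 CPM, and 1117 below -1 became 7134 and 264 with these filters. Between OLFM4-knockout and the library labelled OLFM4-active, 490 above 1 became 212 with totals, 267 with housekeeping genes, 4017 with at least 1 count and 127 with at least 10 CPM, and 563 below -1 became 1135, 956, 5901 and 206.

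With the longest transcript as length, the rank of PTHLH among secreted ligands was 27 in OLFM4-wild and 6 in OLFM4-knockout. With pairs that overlap by at least 50 exon bases, the PTHLH pair lay above 71.3%, 70.7% and 71.9% of them in OLFM4-wild, OLFM4-knockout and the library labelled OLFM4-active. Of the 10 genes most like PTHLH, 9 were shared with the largest absolute difference as measure and 6 at 50 CPM or more. The median of the regulators of PTHLH transcription in the library labelled OLFM4-active was 0.16 with TMM factors and -0.04 with housekeeping genes.

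No paired analysis was possible because each condition had 1 library, which also left no replicate to leave out. Depth limits the receptors, whose counts were at or near 0.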
